A study of Homo sapiens with 4 samples.

Results

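The genes described are MHC class II genes, with the invariant chain and the transactivator that belong to them: 10 genes, HLA-DRA, HLA-DRB1, HLA-DQA1, HLA-DQB1, HLA-DPA1, HLA-DPB1, HLA-DMA, HLA-DMB, CD74 and CIITA. They were taken by symbol from a table of 23622 genes listed by Ensembl identifier, and all 10 were found. RNA was sequenced from MV4-11 cells, an established human acute myeloid leukemia line, with 2 control libraries (sh-NC) and 2 libraries with knockdown of IRF1 (sh-IRF1). In the study, short hairpin RNAs in the pLKO.1 vector were delivered by lentivirus and the cells were selected with puromycin. The labels call the controls WT with treatment none, whereas the study describes them as carrying a control hairpin. More than 1 hairpin against IRF1 was used in the study, and the labels do not say which one each sh-IRF1 library carried. Nothing in the labels says that the 2 libraries of a group came from separate cultures, so the p-values measure the spread between these libraries, which may be technical.

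MHC class II molecules present peptides from the endosomal pathway to CD4 T cells. Each is a pair of an alpha and a beta chain (DR, DQ and DP) that assembles with the invariant chain, encoded by CD74, and exchanges a fragment of it for a peptide with the help of HLA-DM. Transcription of these genes requires CIITA, a coactivator without DNA binding of its own, which is recruited to an X box and a Y box in their promoters by the RFX complex, CREB and NF-Y. CIITA is itself transcribed from several promoters, of which the interferon-gamma inducible one is a known target of IRF1. Monocytic leukemia cells often carry class II on their surface.

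The promoter stretches below are shown because the X box and Y box are what the class II genes share and what CIITA acts through. A window from 250 bases before to 50 bases after the RefSeq transcript start (GRCh38.p14) was at hand for 8 of the 10 members. HLA-DRA and CIITA had no entry. The X box core was searched as CNAG and ACNGA with 2 bases between them and the Y box as ATTGG, both on either strand, and the core was written with class II promoters in view. N stands for any base. Capitals mark the X box core first and the Y box second, read 5′ to 3′ along the gene.
HLA-DRB1, chr6:32589875-32589944, minus strand: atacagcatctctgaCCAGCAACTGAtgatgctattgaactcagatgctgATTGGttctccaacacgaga
HLA-DQA1, chr6:32637287-32637357, plus strand: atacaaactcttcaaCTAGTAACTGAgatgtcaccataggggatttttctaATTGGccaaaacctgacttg
HLA-DQB1, chr6:32666726-32666795, minus strand: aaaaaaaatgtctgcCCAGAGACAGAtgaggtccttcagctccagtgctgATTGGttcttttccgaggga
HLA-DMA, chr6:32953157-32953227, minus strand: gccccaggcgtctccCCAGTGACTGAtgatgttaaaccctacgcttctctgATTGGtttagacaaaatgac
HLA-DMB, chr6:32941063-32941133, minus strand: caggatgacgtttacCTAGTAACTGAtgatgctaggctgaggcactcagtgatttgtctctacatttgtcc
HLA-DPA1, chr6:33073695-33073765, minus strand: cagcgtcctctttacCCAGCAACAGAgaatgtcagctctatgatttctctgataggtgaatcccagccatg
CD74, chr5:150412924-150412998, minus strand: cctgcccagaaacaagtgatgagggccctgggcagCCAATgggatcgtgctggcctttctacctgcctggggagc

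The X box core was found in a window of 6 of the 8 members, against 3.35% of 35116 windows in the table. The Y box, a short motif, was found in 7 of the 8 and in 34.6% of all windows. Both together in the order shown, with 15 to 30 bases between them, were found for 4 members, HLA-DRB1, HLA-DQA1, HLA-DQB1 and HLA-DMA, with a gap of 24 or 25 bases in each. Only 10 of the 35116 windows (0.0285%) held this arrangement. Of these, 6 belonged to class II loci, the other two of which were HLA-DRB5 and HLA-DOA. Among the 4 windows of other genes was that of MR1, which presents microbial metabolites to T cells and is singled out here after its values were seen. The CD74 window held the Y box on the opposite strand (CCAAT) and no match to the X box core as searched. The HLA-DPB1 window likewise held the Y box without such a match. A looser form of the X box was not searched. An IRF element, searched as GAAA and GAAA with 2 bases between them on both strands, was found in none of the 8 members' windows and in 3.57% of all windows. A match is a description of these letters only.

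The values deposited for a gene are its reads after division by a size factor that is common to the library, and are called normalized counts below. The libraries held between 17635908 and 18695337 reads. IRF1 itself was measured at 785 and 738 normalized counts in sh-NC replicates 1 and 2 and at 430 and 432 in sh-IRF1 replicates 1 and 2, a log2 fold change of -0.82 ± 0.09 (SE) with an adjusted p of 1.7e-10. The residual level in sh-IRF1 was thus 56.6% of the control mean, and 22.9% of the exonic bases of IRF1 are shared with an antisense gene. All log2 fold changes are sh-IRF1 over sh-NC on log2(normalized count + 1), a scale on which changes of low values come out too small. The limma model covered the 14120 genes with at least 10 normalized counts in at least 2 libraries, with Benjamini-Hochberg adjustment over all of them. An exact permutation test of 2 libraries against 2 has 0.33 as its smallest two-sided p. The calls therefore lean on limma's estimate of spread, which is shared between genes.

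Most of the class II transcripts that could be tested were higher in the cells with IRF1 knockdown. Of the 10 members, 7 passed the filter on low values, and 6 of these 7 rose at an adjusted p below 0.05 (HLA-DRA, HLA-DRB1, HLA-DQB1, HLA-DMA, CD74 and CIITA). None fell, and at an unadjusted p below 0.05 none was lower either, nor was any called lower by edgeR or DESeq2. Over all genes tested, 20.3% were called higher and 21.9% lower. Both sh-IRF1 libraries lay above both sh-NC libraries for the same 6 of the tested members, a pattern that 34.2% of all genes tested showed. The median log2 fold change of the 7 tested members was 0.61, beside -0.00189 over all genes tested. With the study's minimum log2 fold change of 0.5 as well, 5 members were called higher (all but CIITA), against 8.27% of the genes tested. In a bulk sample, more cells with class II transcripts and more transcript per cell cannot be told apart.

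**Figure D1:**
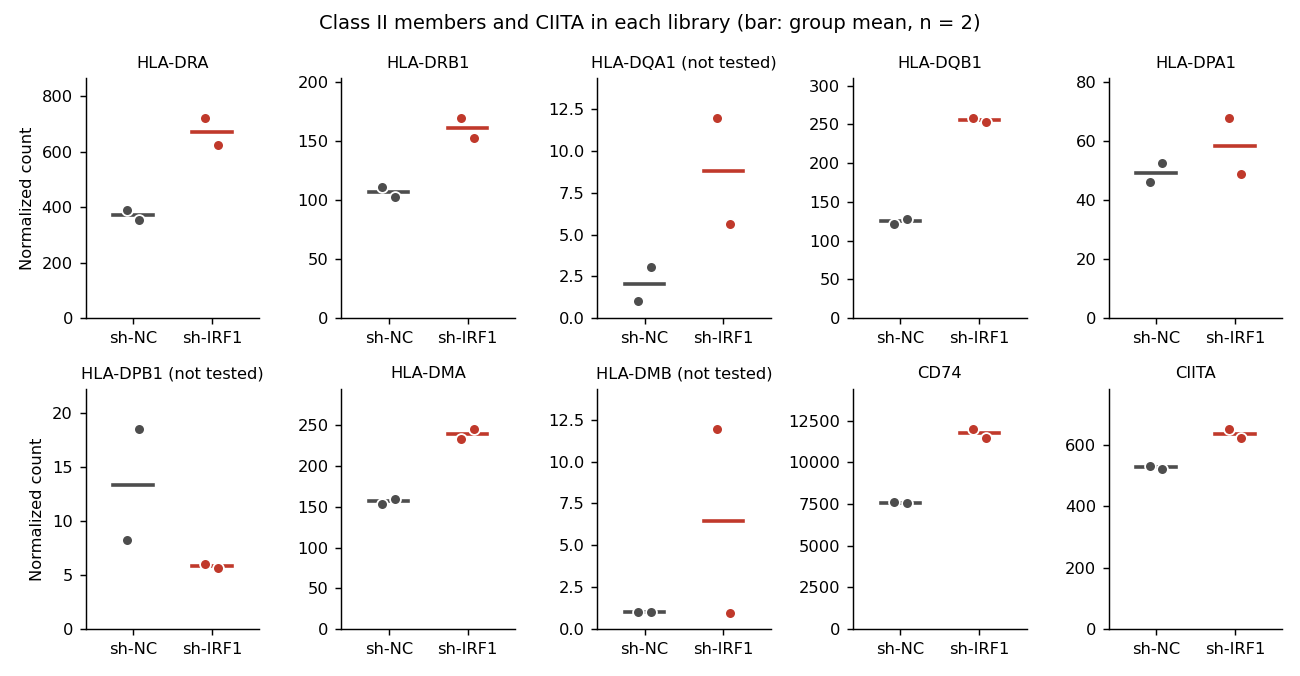
Normalized count (vertical axis, linear from 0, a separate scale for each gene) of each of the 10 members in the 2 sh-NC libraries (grey points) and the 2 sh-IRF1 libraries (red points), with the group mean as a bar. HLA-DRA, HLA-DRB1, HLA-DQB1, HLA-DMA, CD74 and CIITA have both red points above both grey ones, and so does HLA-DQA1, which was not tested. HLA-DPA1 and HLA-DMB overlap, and HLA-DPB1 lies lower in sh-IRF1.

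The DR molecule is the most abundant class II molecule on most antigen-presenting cells, with an alpha chain from HLA-DRA that hardly varies between people and a polymorphic beta chain from HLA-DRB1. HLA-DRA (chr6:32439878-32445046) was measured at 389 and 354 normalized counts in sh-NC replicates 1 and 2, and at 719 and 622 in sh-IRF1 replicates 1 and 2. It rose by a log2 fold change of 0.85 ± 0.10 (SE, n = 2 per group; 95% interval 0.65 to 1.05) with limma's adjusted p of 9.3e-10, a 1.80-fold difference. The groups were far apart compared with the spread within each. HLA-DRB1 (chr6:32577902-32589848) was measured at 111 and 103 normalized counts in sh-NC and at 169 and 153 in sh-IRF1. Its log2 fold change was 0.59 ± 0.18 (95% interval 0.21 to 0.96, adjusted p = 0.0085). Without sh-IRF1 replicate 1 it was 0.51 and the call was lost, in a fit that leaves 1 library in that group.

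Reads of HLA-DRB1 and of its near-identical neighbour HLA-DRB5 can be exchanged in alignment, since the alleles of the line were compared with 1 reference haplotype. HLA-DRB5, which encodes the second DR beta chain of some haplotypes, was measured at 33.9 and 31.8 normalized counts in sh-NC and at 57.7 and 83.4 in sh-IRF1. It rose as well, by 1.06 ± 0.30 (adjusted p = 0.0039). Without sh-IRF1 replicate 2 the value was 0.79 and the call was lost, again with 1 library left in the group. Per read of HLA-DRB1, HLA-DRA had 3.51 and 3.45 reads in sh-NC and 4.25 and 4.07 in sh-IRF1, higher in both sh-IRF1 libraries. Per read of HLA-DRB1 and HLA-DRB5 summed, it had 2.69 and 2.63 reads in sh-NC and 3.17 and 2.63 in sh-IRF1, and the groups then overlapped.

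The DQ and DP pairs were uneven, with reads mostly from 1 chain of each. HLA-DQB1 (chr6:32659467-32668383), the DQ beta chain, was measured at 122 and 127 normalized counts in sh-NC and at 258 and 253 in sh-IRF1. Its log2 fold change of 1.03 ± 0.16 (95% interval 0.71 to 1.35, adjusted p = 5.0e-07) was the highest among the tested members, a 2.04-fold difference. HLA-DQA1, the DQ alpha chain (chr6:32628179-32647062), had 1 and 3 reads in sh-NC and 12 and 6 in sh-IRF1. Its libraries did not overlap either, but it did not pass the filter and no fold is given, since the sh-NC libraries are at or under 3 reads. HLA-DQA1 and HLA-DQB1 differ much between haplotypes, and reads of an allele far from the reference may not be aligned. Of the exonic bases of HLA-DQB1, 4.92% are shared with another annotated gene.

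Neither DP chain was called. HLA-DPA1 (chr6:33064569-33080775), the DP alpha chain, was measured at 46.2 and 52.4 normalized counts in sh-NC and at 67.6 and 48.7 in sh-IRF1. Its log2 fold change of 0.22 ± 0.29 (95% interval -0.36 to 0.80) did not pass the test (adjusted p = 0.58), and the groups overlapped. Without sh-IRF1 replicate 1 the value was -0.01, so its sign rests on that library. HLA-DPB1 (chr6:33075990-33089696), the DP beta chain, had 8 and 18 reads in sh-NC and 6 and 6 in sh-IRF1, and it was the 1 member with both sh-IRF1 libraries below both sh-NC libraries. It did not pass the filter. Fitted without the filter, its log2 fold change was -0.98 with an adjusted p of 0.34.

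HLA-DM is the peptide exchange factor in the endosome and needs both of its chains. HLA-DMA (chr6:32948613-32969094), its alpha chain, was measured at 154 and 159 normalized counts in sh-NC and at 233 and 245 in sh-IRF1. It rose by 0.61 ± 0.15 on the log2 scale (95% interval 0.30 to 0.92, adjusted p = 0.0010), a 1.52-fold difference with no overlap between groups. HLA-DMB (chr6:32934629-32941028), its beta chain, had 1 and 1 reads in sh-NC and 12 and 1 in sh-IRF1, and the groups overlapped. Nearly all DM reads were therefore from the alpha chain in every library, and the 12 reads of HLA-DMB in sh-IRF1 replicate 1 stand against 1 read in each of the other libraries. Of the exonic bases of HLA-DMA and HLA-DMB, 8.53% and 9.49% are shared with other annotated genes.

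CD74, the invariant chain, fills the peptide groove of new class II molecules and sorts them to the endosome, and it lies outside the class II region (chr5:150401637-150412969). It was measured at 7600.1 and 7544 normalized counts in sh-NC and at 12006 and 11490.1 in sh-IRF1. Its log2 fold change of 0.63 ± 0.03 (95% interval 0.57 to 0.70, adjusted p = 3.2e-22) was the most precisely measured of the members. CD74 made up between 84.8% and 85.5% of the reads of all 10 members in each library, so its share hardly moved while the sum rose. That sum was 8965 and 8885 normalized counts in sh-NC and 14135 and 13447 in sh-IRF1. Without CD74 the other 9 members summed to 1365 and 1340 in sh-NC and to 2129 and 1956 in sh-IRF1.

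The transactivator CIITA rose by a smaller fold than CD74, HLA-DRA and HLA-DQB1. CIITA (chr16:10866222-10943021) was measured at 533 and 522 normalized counts in sh-NC and at 653 and 622 in sh-IRF1. Its log2 fold change was 0.27 ± 0.09 (95% interval 0.09 to 0.45, adjusted p = 0.012), a 1.21-fold difference. The call was lost without sh-IRF1 replicate 1 (0.24, adjusted p = 0.11), while the direction was kept. The 95% intervals of CD74, HLA-DRA and HLA-DQB1 lie wholly above that of CIITA, and the difference between genes was not tested otherwise. Of the exonic bases of CIITA, 21.6% are shared with other genes, and the use of strand in counting is not given in the sources used here, so reads of such neighbours cannot be told apart from its own. The gene-level values do not separate the promoters of CIITA.

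**Figure D2:**
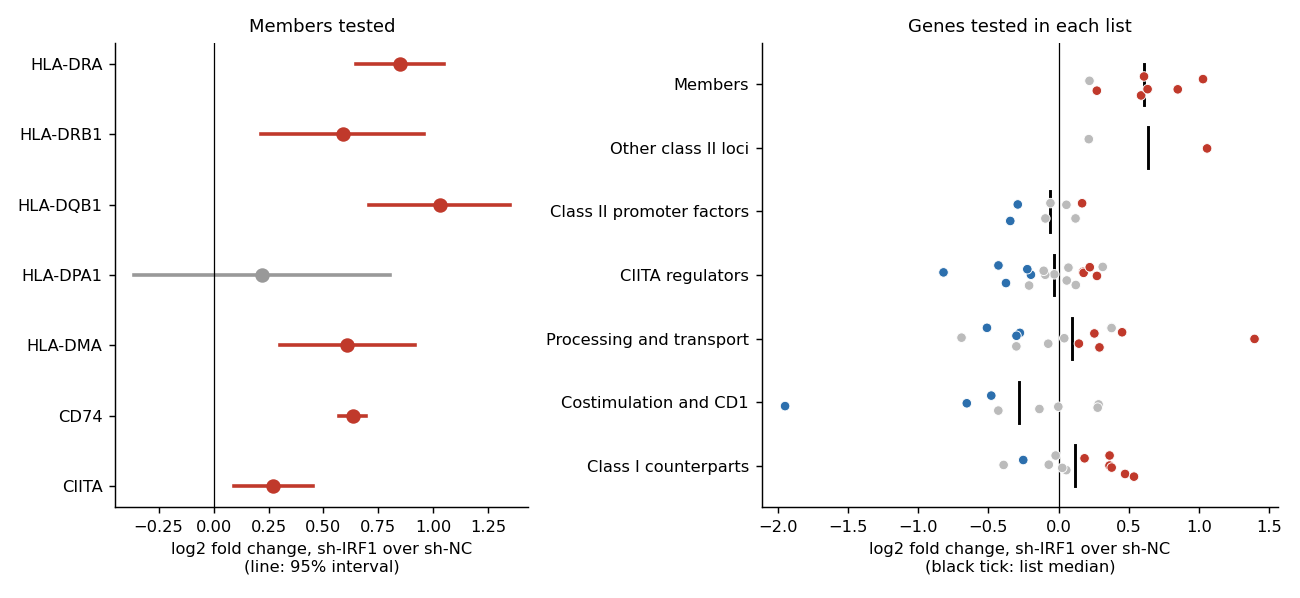
Left, log2 fold change (sh-IRF1 over sh-NC) of the 7 tested members, with the 95% interval as a line. Right, log2 fold change of every tested gene in each list, red where called higher, blue where called lower and grey where not called at an adjusted p of 0.05, with the list median as a black tick (vertical scatter within a list is only to separate points). The members lie between 0.22 and 1.03, and the costimulation genes reach down to -1.95.

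Ratios between genes of 1 library do not depend on how libraries are scaled. Per read of CIITA there were 0.729 and 0.679 reads of HLA-DRA in sh-NC and 1.10 and 1.00 in sh-IRF1. For HLA-DQB1 the values were 0.229 and 0.244 against 0.395 and 0.407, and for CD74 they were 14.2 and 14.5 against 18.4 and 18.5. Each of these ratios, and that of HLA-DMA (0.288 and 0.305 against 0.357 and 0.395), was higher in both sh-IRF1 libraries. Among the class II genes themselves the order was less uniform. CD74 had 19.5 and 21.3 reads per read of HLA-DRA in sh-NC and 16.7 and 18.5 in sh-IRF1, whereas HLA-DQB1 per HLA-DRA overlapped between groups (0.314 and 0.359 against 0.358 and 0.407). CIITA had 0.680 and 0.707 reads per read of IRF1 in sh-NC and 1.52 and 1.44 in sh-IRF1. IRF1 is the gene that was knocked down, so a rise of this last ratio is in part given by the design.

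**Figure D3:**
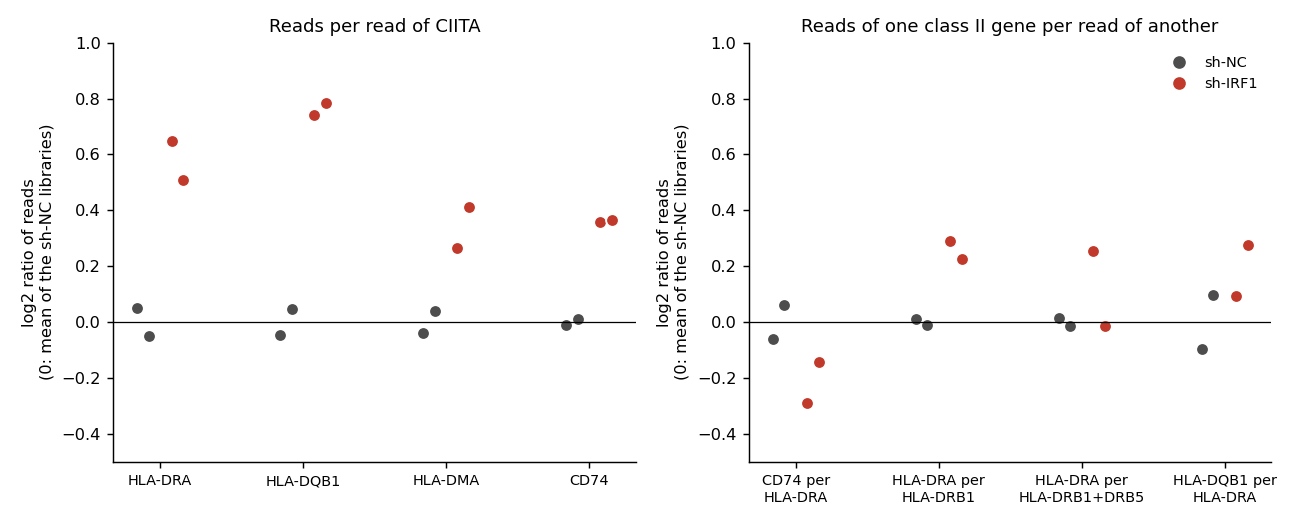
Reads of one gene per read of another in each library, as log2 of the ratio with the mean of the 2 sh-NC libraries at 0 (grey, sh-NC; red, sh-IRF1). Left, the 4 genes per read of CIITA all lie higher in both sh-IRF1 libraries; right, ratios among class II genes, of which HLA-DRA per HLA-DRB1 and HLA-DRB5 summed and HLA-DQB1 per HLA-DRA overlap between groups.

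Levels of different genes were compared only per length, as normalized counts per kilobase of all annotated exons. In sh-NC the group means ran from CD74 (1673) through HLA-DRA (299), HLA-DMA (62.1), HLA-DRB1 (34.6), HLA-DQB1 (25.5), CIITA (23.4), HLA-DPA1 (8.57) and HLA-DPB1 (2.56) to HLA-DQA1 (0.298) and HLA-DMB (0.223). Neighbours in this order did not overlap between libraries, other than the last pair. In sh-IRF1 the first 7 ranks were held by the same genes, from CD74 (2596) and HLA-DRA (539) down to CIITA (28.3) and HLA-DPA1 (10.1). HLA-DRB1 and HLA-DQB1, at 52.2 each, were no longer apart. HLA-DMB (1.40), HLA-DQA1 (1.28) and HLA-DPB1 (1.11) overlapped at the foot. Per kilobase of the canonical transcript the order in sh-NC was the same, but the values moved, for example to 4581 for CD74 and 87.3 for HLA-DRB1.

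A few genes of other function inside the class II region were tested, and none was called higher. They are too few for this to be a result, with 20.3% of all genes tested called higher. Between the outermost class II members on chromosome 6, 20 annotated genes were measured and 13 tested. Of these, 5 were called higher, beside 20.3% of all genes tested. All 5 were class II genes (HLA-DRA, HLA-DRB5, HLA-DRB1, HLA-DQB1 and HLA-DMA). Between them lie 4 genes of class I peptide supply, of which the immunoproteasome subunit PSMB8 was called lower (1561 and 1320 normalized counts in the control libraries, 1180 and 1231 in sh-IRF1; log2 fold change -0.25, adjusted p = 0.0017). That call was lost without sh-NC replicate 1 and without sh-IRF1 replicate 1. The peptide transporter subunits TAP1 (0.03) and TAP2 (-0.07) and the subunit PSMB9 (-0.39) did not pass the test. Neither did PSMB8-AS1 (-0.27) nor the chromatin reader BRD2 (-0.04), next to HLA-DMA. Within 200 kb of CIITA on chromosome 16, 7 other genes were measured, and limma called none of the 4 tested. Over all genes tested 20.3% were called higher and 21.9% lower, and these neighbours were not tested against those shares. TVP23A had 5 and 7 reads in sh-NC and 16 and 14 in sh-IRF1, and NUBP1 had a log2 fold change of -0.12. DEXI, antisense to the end of CIITA, had a log2 fold change of 0.30 (adjusted p = 0.43). CLEC16A, the next gene, had one of 0.11 (adjusted p = 0.10) and was the 1 gene of these with an unadjusted p below 0.05 by limma. At this threshold edgeR also gave 1 gene and DESeq2 gave 0, and at an adjusted p below 0.05 both gave 0. With total-count scaling limma called 1 of the 4 higher.

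**Figure D4:**
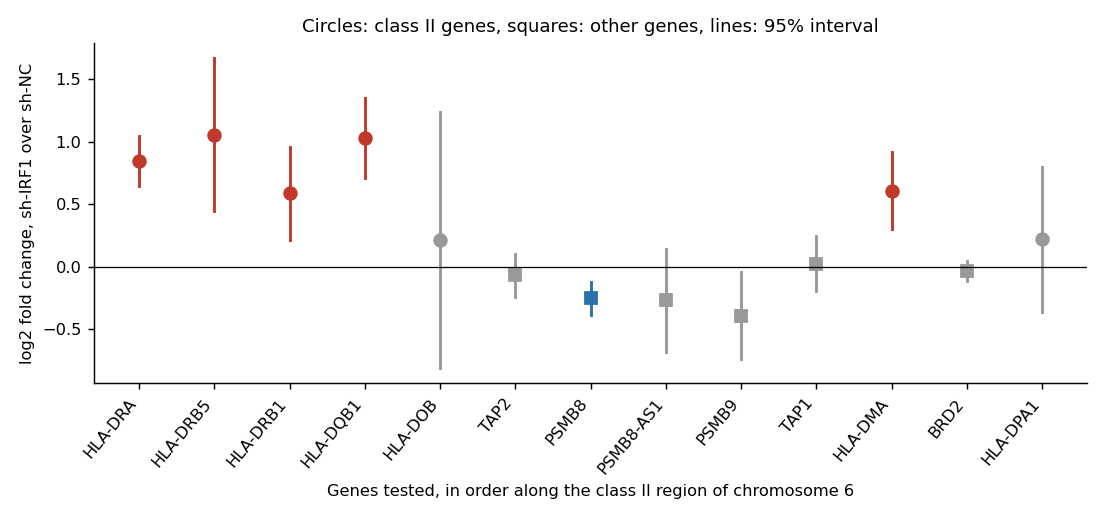
Log2 fold change (sh-IRF1 over sh-NC) of the 13 tested genes between HLA-DRA and HLA-DPA1, in their order along chromosome 6, with 95% intervals as lines (circles, class II genes; squares, other genes; red, called higher; blue, called lower; grey, not called). The 5 genes in red are class II genes, and PSMB8 in blue lies among the class I supply genes between them.

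The remaining class II loci had few reads, apart from HLA-DRB5. HLA-DOB, the beta chain of the HLA-DM inhibitor HLA-DO, was measured at 11.3 and 21.6 normalized counts in sh-NC and at 19.9 and 16.9 in sh-IRF1, and did not pass the test (0.21, adjusted p = 0.77). HLA-DOA, its alpha chain, and HLA-DQB2 each had 0 reads in 3 libraries and 3 reads in sh-IRF1 replicate 1, which is at the limit of 3 reads that a count of 0 allows. The pseudogene HLA-DRB6 had 3 and 0 reads in sh-NC and 0 and 5 in sh-IRF1. HLA-DRB3, HLA-DRB4, HLA-DQA2, HLA-DRB9, HLA-DPA2, HLA-DPB2, HLA-DPA3 and HLA-DQB3 were not found by symbol among the genes listed. MR1, with the box arrangement in its window, was measured at 868 and 782 normalized counts in sh-NC and at 926 and 974 in sh-IRF1 (log2 fold change 0.20, adjusted p = 0.024).

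Of the 7 factors that bring CIITA to the X box and Y box, all tested, 1 was called higher and 2 lower (median log2 fold change -0.06). With 20.3% and 21.9% of all genes tested called higher and lower, these counts are no result about the factors. RFXANK, a subunit of the RFX complex, was lower (-0.29 ± 0.05, adjusted p = 2.0e-05), and so was NFYB, a histone-fold subunit of NF-Y (-0.34 ± 0.10, adjusted p = 0.0028). NFYC, its partner subunit, was higher by 0.17 (adjusted p = 0.028), a call lost with DESeq2 and without any 1 of the 4 libraries. The others, RFX5, RFXAP, NFYA and CREB1, did not pass the test. For RFXANK, 23.3% of the exonic bases are shared with other genes.

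Of 17 genes known to act on CIITA, 4 were called higher and 5 lower, IRF1 included, with a median of -0.03. These shares are near those over all genes tested (20.3% and 21.9%) and are no result about the list. The myeloid factor SPI1 rose by 0.17 (adjusted p = 6.5e-05) and the acetyltransferase CREBBP by 0.22 (adjusted p = 7.1e-05). Lower were IRF2, a relative that binds the same element as IRF1 (-0.43 ± 0.08, adjusted p = 1.6e-05), and the interferon receptor kinase JAK1 (-0.38 ± 0.05, adjusted p = 1.7e-08). The count of lower genes was 3 with DESeq2, with total-count scaling, without sh-NC replicate 1 and without sh-IRF1 replicate 2. IRF8, a myeloid factor of the same family, was measured at 5900.4 and 5904 normalized counts in sh-NC and at 5732 and 5823 in sh-IRF1, and did not pass the test.

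Downstream of synthesis, the genes for class II processing and transport were split. Of 14 tested, 5 were called higher and 3 lower, with a median of 0.09. Over all genes tested the shares were 20.3% and 21.9%, and whether the list differs from them was not tested. CTSD, an aspartic protease of the lysosome, rose most (2971 and 3146 normalized counts in the control libraries, 8091 and 7989 in sh-IRF1; log2 fold change 1.39 ± 0.04, adjusted p = 6.5e-32), with 48.0% of its exonic bases shared with other annotated genes. AP2A1, an adaptor of endocytic vesicles, rose by 0.29 (adjusted p = 1.3e-09), and the protease CTSB by 0.14 (adjusted p = 0.00028). CTSS, the protease that makes the last cut of the invariant chain in most antigen-presenting cells, was lower (1528 and 1478 normalized counts in the control libraries, 1222 and 1261 in sh-IRF1; -0.28 ± 0.06, adjusted p = 0.00018). RAB7A, a late endosome GTPase, was lower by -0.30 (adjusted p = 2.9e-08). MARCHF8, a ubiquitin ligase that removes class II from the surface, was lower by -0.51 ± 0.12 (adjusted p = 0.00035), and this call was lost without sh-IRF1 replicate 1 (adjusted p = 0.079).

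Costimulatory molecules accompany class II on antigen-presenting cells, and the CD1 family presents lipids beside it. Of the 8 genes of both kinds tested, CD1A and CD1D included, none was called higher and 3 were called lower, with a median of -0.28. All 3 were costimulatory or adhesion molecules. Among all genes tested 20.3% were called higher and 21.9% lower, and a difference of this short list from those shares was not tested. At an unadjusted p below 0.05 limma gave 1 higher gene, CD83 (0.28), edgeR 1 and DESeq2 0, and at an adjusted p below 0.05 edgeR and DESeq2 gave 0. Total-count scaling, and the fit without sh-NC replicate 1, each called 1 higher. CD40, the receptor for T cell help, was measured at 47.2 and 44.2 normalized counts in sh-NC and at 10.9 and 11.2 in sh-IRF1 (-1.95 ± 0.43, adjusted p = 0.00022). The adhesion molecule ICAM1 was lower by -0.65 ± 0.10 (adjusted p = 1.9e-07), with 25.4% of its exonic bases shared, and CD86, a ligand of CD28, by -0.48 ± 0.16 (adjusted p = 0.015). The CD86 call was lost without sh-NC replicate 2 and without either sh-IRF1 library.

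The class I pathway, which presents peptides from the cytosol, also held genes that rose. Of its 12 genes tested, 6 were called higher and 1 lower (PSMB8), with a median of 0.12. The shares over all genes tested were 20.3% higher and 21.9% lower, and the list was not tested against them. HLA-C, a class I heavy chain, rose by 0.47 ± 0.04 (adjusted p = 2.4e-13), the light chain B2M by 0.38 ± 0.03 (adjusted p = 7.2e-15) and the peptide loading chaperone TAPBP by 0.54 ± 0.04 (adjusted p = 4.3e-16). NLRC5, the class I relative of CIITA, was called higher by 0.18 (adjusted p = 0.022), but not with DESeq2 or without sh-NC replicate 2 or sh-IRF1 replicate 2. B2M had 1.57 and 1.47 reads per read of CD74 in sh-NC and 1.24 and 1.30 in sh-IRF1. Whether the class II and class I lists differ was not tested.

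The genes nearest to CIITA and CD74 in their pattern over the 4 libraries were found by Euclidean distance between log2(normalized count + 1) values centred on each gene's mean. For CIITA these were LIG3 (distance 0.012), STK11IP (0.015) and NCF1 (0.016), with log2 fold changes of 0.28, 0.27 and 0.27. For CD74 they were SLCO3A1 (0.013), DUSP3 (0.018) and KCNE3 (0.027), with log2 fold changes of 0.64, 0.64 and 0.61. With 4 libraries, many genes share a pattern of this kind.

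Markers of other cell types, some of which carry class II themselves, are given beside these values. Of 6 B cell markers, CD79A, a chain of the B cell receptor, rose from 50.3 and 43.1 normalized counts in sh-NC to 190 and 250.2 in sh-IRF1 (log2 fold change 2.20 ± 0.21, adjusted p = 4.5e-12). The 5 measured markers summed to 104 and 130 in sh-NC and to 263 and 320 in sh-IRF1. PAX5 was at 18.9 or less in each library, and MS4A1 was not found by symbol among the genes listed. Dendritic cell markers summed to 1595 and 1540 in sh-NC and to 1246 and 1241 in sh-IRF1, with CLEC10A (-3.19) and BATF3 (-0.75) lower. CCR7 had 2 and 2 reads in sh-NC and 27 and 19 in sh-IRF1. It passed the filter only through the sh-IRF1 libraries, so no fold is given. CLEC4C had 2 reads in sh-NC replicate 1 and 0 in the other libraries, and FCER1A, CLEC9A and XCR1 were not found by symbol. The measured T and NK cell markers summed to 12933 and 12744 in sh-NC and to 12959 and 12768 in sh-IRF1. Most of these counts were of CD4, at 11871 and 11661 in sh-NC and 11956 and 11800 in sh-IRF1. Nearly all the rest were of NKG7, at 1061 and 1077 in sh-NC and 1003 and 968 in sh-IRF1. CD3D, CD3E, CD2 and KLRD1 were not found by symbol, and CD8A had 2 and 6 reads in sh-NC and 0 and 0 in sh-IRF1. For the erythroid and megakaryocytic markers the sums were 97.5 and 112 against 52.7 and 43.1, and for the fibroblast and epithelial markers 345 and 258 against 397 and 362. Of the 10 monocytic and myeloblast markers, 3 were called higher, LYZ (0.85), ITGAM (0.64) and ELANE (0.13). Called lower were 6, among them CD14 (-2.81), MPO (-1.42) and FCGR1A (-0.57). With 1 library left out, ITGAM ran from 0.39 to 0.88 and CD14 from -3.83 to -1.78. CD14 had only 11 and 2 reads in sh-IRF1. Among all genes tested 20.3% were called higher and 21.9% lower, and the markers were not tested against these shares. The sum of the 10 markers was 42065 and 41794 in sh-NC and 38279 and 38170.3 in sh-IRF1. The myeloid surface marker CD33 was measured in every library, between 1125 and 1190.4 normalized counts. The part of these markers in the class II values was not tested.

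**Figure D5:**
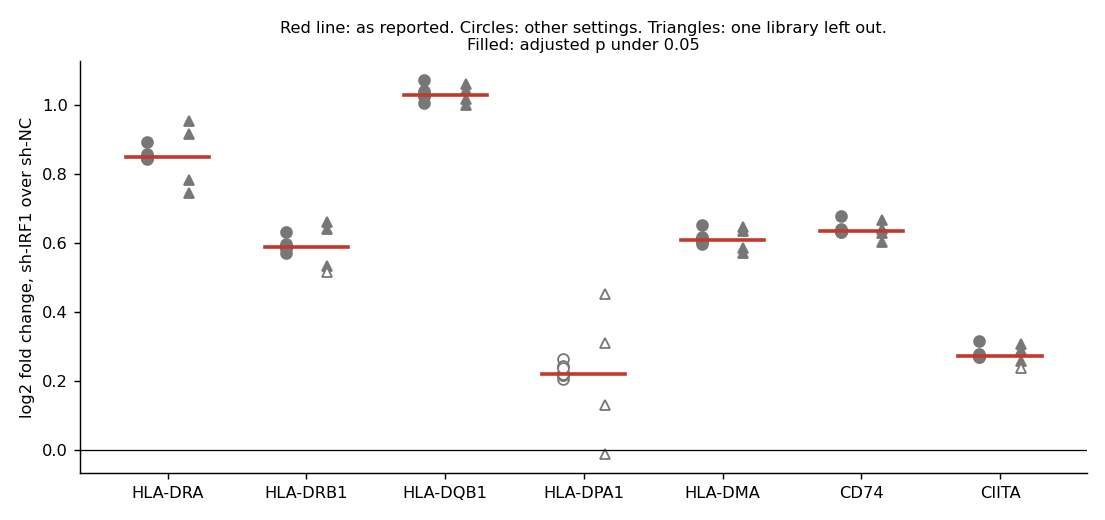
Log2 fold change (sh-IRF1 over sh-NC) of the 7 tested members as reported (red line), under 11 other settings of scaling, filter, pseudocount or test (circles) and with 1 library left out (triangles). Filled symbols have an adjusted p below 0.05. HLA-DRB1 and CIITA each have 1 open symbol, the fit without sh-IRF1 replicate 1, and HLA-DPA1 has open symbols only.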

How the data were processed

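The members and gene lists were chosen with earlier results of these data known. The authors deposited a normalized signal, reads per gene divided by 1 size factor per library, and 100% of values were whole multiples of 1 read within 0.001 of a read, so reads were recovered. Per the labels, HISAT2 2.0.5 and hg38 were used. The counting tool, annotation and use of strand are not given in the sources used here. The study names FPKM and DESeq2 in its methods.

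Symbols matched 23456 of 23622 identifiers. Positions and exon lengths came from GENCODE on GRCh38, promoters from RefSeq. limma 3.58.1 (R 4.3.3; trend, robust) was run on log2(normalized signal + 1). edgeR 4.0.16 and DESeq2 1.42.0 on the recovered reads, other scalings, filters and pseudocounts, a replicate block, a minimum log2 fold change of 0.5 and fits without each library were alternatives. Scripts were tested on simulated data.

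Named were all members, IRF1, the other class II loci, up to 3 called genes in each direction of each list by smallest p, called neighbours past the minimum fold, and 3 genes nearest in pattern to CIITA and CD74. MR1, CD83, NLRC5, PSMB9, PSMB8-AS1, TAP1, TAP2, BRD2, DEXI, CLEC16A, TVP23A, NUBP1, IRF8 and single markers were named after their values were seen. The values of 1 gene among the CIITA regulators are not reported here.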

Additional observations from a re-analysis of the deposited data

How the results depend on the processing

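With n = 2 per group, the count of members called higher was 6 under each setting that kept the call rule and used all 4 libraries, 5 with the minimum log2 fold change of 0.5, and 4 to 6 with 1 library left out. Members called lower were 0 throughout, and the median of the tested members ran from 0.60 to 0.66. The calls of HLA-DRA, HLA-DQB1, HLA-DMA, CD74 and IRF1 held under all 15 refits. HLA-DRB1 (0.51) and CIITA (0.24) lost theirs without sh-IRF1 replicate 1, with the cause not tested, and HLA-DPA1 ran from -0.0131, reversed without that library, to 0.45. Across all genes 5953 were called, 4450.0 to 5429 with 1 library left out, and 2235 with the minimum log2 fold change, by construction. Total-count scaling moved the median of all genes to 0.04 and the split from 2861 higher and 3092 lower to 3428 and 2647. Labels number the replicates alike in both groups, but with 2 pairs the deviations of same-numbered libraries correlated at -0.015, so the numbers were not taken to pair samples. With the replicate block, 6050.0 genes and 6 members were called. Genes with few reads, such as HLA-DQA1 and HLA-DMB, could not be judged at this depth.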

Other observations

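Among the class II genes with few reads, 4 were highest in sh-IRF1 replicate 1. sh-IRF1 replicate 1 held 12 reads of HLA-DMB, 12 of HLA-DQA1, 3 of HLA-DOA and 3 of HLA-DQB2. In sh-IRF1 replicate 2 these were 1, 6, 0 and 0 reads, and in the sh-NC libraries at most 3. HLA-DPA1 was also highest there, with 68 reads against 52 in sh-IRF1 replicate 2, although sh-IRF1 replicate 1 had fewer reads in all (17697836 against 18695337). Of the class II genes with more reads, HLA-DRA (723 against 664 in sh-IRF1 replicate 2) and HLA-DRB1 (170 against 163) were highest there too. HLA-DQB1 and CD74 were highest there by normalized count only, and HLA-DMA was highest in sh-IRF1 replicate 2. HLA-DPB1, HLA-DOB, HLA-DRB6 and HLA-DRB5 were not highest in sh-IRF1 replicate 1. HLA-DPB1 had 8 and 18 reads in sh-NC and 6 and 6 in sh-IRF1, HLA-DOB had 11 and 21 against 20 and 18, and HLA-DRB6 had 3 and 0 against 0 and 5. HLA-DRB5 had 58 reads in sh-IRF1 replicate 1 and 89 in sh-IRF1 replicate 2. These genes were picked after their values were seen.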
